A study of Homo sapiens with 5 samples.

Results

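Antigen processing and presentation genes make the machinery that shows protein fragments on the cell surface to T cells, and the ligands that mark stressed cells for natural killer (NK) cells. Of the 33 genes taken as members, 32 had a row of their own among 24544 gene symbols in all 5 deposited tables. They comprised 12 class I genes, 5 immunoproteasome genes, 9 class II genes, 3 regulators and 3 NKG2D ligands. Members were taken by exact match of the gene name, and rows that shared a symbol were summed. TAPBP, which encodes the peptide-loading factor tapasin, had no row of its own and stood only in a row combined with its neighbour ZBTB22. That combined row held 6.95, 6.86, 5.81, 2.42 and 2.69 FPKM (fragments per kilobase of transcript, scaled for depth), in the order empty vector, SALL4A, SALL4B, untreated and knockdown, and it cannot be divided between both genes.

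In the class I pathway, the proteasome cuts cytosolic proteins into peptides. The immunoproteasome subunits replace the constitutive catalytic subunits and change which peptides are made. The TAP1-TAP2 transporter carries peptides into the endoplasmic reticulum, the aminopeptidases ERAP1 and ERAP2 trim them, and PDIA3 helps to load them on a heavy chain paired with B2M. In the class II pathway, CD74 (the invariant chain) occupies the groove of HLA-DR or HLA-DP molecules, CTSS degrades CD74, and HLA-DM exchanges the remaining fragment for an antigenic peptide. NLRC5 is the transactivator of class I genes and CIITA that of class II genes, and both act with the RFX complex, of which RFX5 is a subunit. Interferon gamma raises most of these genes in many cell types, and hepatocytes normally carry low class I and little class II.

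Both cell lines, SNU-387 and SNU-398, come from human hepatocellular carcinoma and are long established, and SALL4 is a zinc finger transcription factor of embryonic tissue with a long isoform (SALL4A) and a short isoform (SALL4B). In SNU-387 there was an empty vector library, a SALL4A vector library and a SALL4B vector library, while SNU-398 was sequenced untreated or with a SALL4 knockdown aimed at both isoforms. All 5 samples shared growth in RPMI medium with 10% serum, and a single protocol entry, lentiviral transduction with puromycin selection, stands for all of them, including the SNU-398 control that its source label calls untreated. By that source label the knockdown cells were compared with cells without a vector, so transduction, selection and loss of SALL4 cannot be told apart. The cell line field reads SNU-387 for all 5 samples, and groups followed the titles. Each group was 1 library, so no difference below has a replicate check and no p-value was computed. These are bulk samples, in which fewer cells that express a gene and less RNA per cell cannot be told apart.

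SALL4 stood at 0.117, 23.1, 10.4, 39.4 and 7.45 FPKM in the same order of libraries, so it moved in the labelled direction in all 3 manipulated libraries. Estimated depth, from the steps between low FPKM values, was lowest in knockdown cells, at 7.18 M (mega) fragments, then 8.85 M with SALL4B, 11.9 M with the empty vector, 21.5 M in untreated cells and 23.5 M with SALL4A. Small RNAs took 1.74% of summed FPKM in the untreated library, 8.49% to 14.4% in the 3 SNU-387 libraries and 39.3% in the knockdown library. ALB, the hepatocyte marker albumin, reached at most 1.28 FPKM, so neither line carried this hepatocyte transcript at a high level. Of 6 hepatocyte markers, ALB included, 2, 1, 2, 1 and 0 reached 1 FPKM in the order of libraries given for SALL4. Their sum was highest with SALL4B, at 40.6 FPKM. The leukocyte marker PTPRC (CD45) lay between 0.22 and 1.19 FPKM. The 15 leukocyte markers summed to 56.1, 34.2, 56.5, 11.0 and 13.1 FPKM, of which CD68, a lysosomal protein of macrophages that other cells also make, was the largest part. At 1 FPKM or more stood 5, 4, 3, 2 and 2 of the 15, while 2, 5, 5, 5 and 5 were listed at 0.

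Promoter sequences of 26 members were matched in RefSeq (GRCh38.p14), as 36 windows of 300 bases from 250 before to 50 after a start. The windows below belong to the member of each class with the largest absolute log2 ratio in any comparison, among those at 5 FPKM or more in a library. HLA-B and HLA-C are shown as paralogs that can share reads, and B2M was added after its values were seen. Where a gene had several windows, that with the most matches is shown, and for RFX5, whose 3 windows tied, the one with an interferon-type match. Letters are lower case from 5′ to 3′ on the gene's strand. Capitals mark a match, on either strand, to the CCAAT box (ATTGG), the CRE core (TGACG), the core of the interferon-stimulated response element (GAAANNGAAA), the GAS element (TTCNNNGAA) or the NF-kB site. Matches can overlap, and then run together as 1 stretch of capitals.
HLA-B, chr6:31357130-31357429, minus strand, a class I heavy chain: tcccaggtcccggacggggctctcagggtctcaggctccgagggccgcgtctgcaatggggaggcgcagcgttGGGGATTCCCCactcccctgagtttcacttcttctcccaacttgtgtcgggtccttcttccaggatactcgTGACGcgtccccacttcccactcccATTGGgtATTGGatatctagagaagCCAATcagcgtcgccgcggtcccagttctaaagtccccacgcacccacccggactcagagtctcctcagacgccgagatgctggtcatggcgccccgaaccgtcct
HLA-C, chr6:31272043-31272342, minus strand, a class I heavy chain: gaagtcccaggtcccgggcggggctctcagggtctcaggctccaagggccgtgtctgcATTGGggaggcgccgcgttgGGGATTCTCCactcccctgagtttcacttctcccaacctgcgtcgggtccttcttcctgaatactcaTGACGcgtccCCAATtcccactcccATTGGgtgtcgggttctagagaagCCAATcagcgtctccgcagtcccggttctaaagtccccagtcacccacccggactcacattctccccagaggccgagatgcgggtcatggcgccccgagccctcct
B2M, chr15:44711267-44711566, plus strand, the shared light chain: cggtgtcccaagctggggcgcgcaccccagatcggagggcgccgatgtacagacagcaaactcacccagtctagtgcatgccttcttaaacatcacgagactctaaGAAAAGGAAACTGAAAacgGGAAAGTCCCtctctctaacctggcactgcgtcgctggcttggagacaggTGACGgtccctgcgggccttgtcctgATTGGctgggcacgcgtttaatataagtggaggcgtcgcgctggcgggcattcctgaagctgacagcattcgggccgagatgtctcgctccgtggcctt
ERAP2, chr5:96876250-96876549, plus strand, a trimming aminopeptidase: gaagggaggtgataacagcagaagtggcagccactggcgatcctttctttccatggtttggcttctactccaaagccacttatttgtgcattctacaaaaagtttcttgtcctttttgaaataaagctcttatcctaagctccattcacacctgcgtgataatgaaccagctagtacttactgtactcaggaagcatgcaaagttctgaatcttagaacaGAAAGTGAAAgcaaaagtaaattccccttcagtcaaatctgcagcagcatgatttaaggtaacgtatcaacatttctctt
PSMB8, chr6:32843998-32844297, minus strand, an immunoproteasome subunit: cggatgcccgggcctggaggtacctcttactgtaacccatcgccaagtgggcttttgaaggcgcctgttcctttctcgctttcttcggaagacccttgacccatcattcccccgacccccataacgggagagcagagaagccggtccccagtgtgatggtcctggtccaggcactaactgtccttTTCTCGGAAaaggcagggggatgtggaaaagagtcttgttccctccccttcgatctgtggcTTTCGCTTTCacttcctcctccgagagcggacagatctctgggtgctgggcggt
CD74, chr5:150412861-150413160, minus strand, the invariant chain: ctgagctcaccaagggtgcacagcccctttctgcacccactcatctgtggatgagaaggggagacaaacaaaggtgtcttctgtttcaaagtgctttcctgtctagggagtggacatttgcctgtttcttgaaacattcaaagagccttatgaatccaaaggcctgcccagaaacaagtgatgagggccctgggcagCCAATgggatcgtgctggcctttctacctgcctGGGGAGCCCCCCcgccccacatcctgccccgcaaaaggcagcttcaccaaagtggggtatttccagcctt
RFX5, chr1:151346950-151347249, minus strand, a subunit of the RFX complex: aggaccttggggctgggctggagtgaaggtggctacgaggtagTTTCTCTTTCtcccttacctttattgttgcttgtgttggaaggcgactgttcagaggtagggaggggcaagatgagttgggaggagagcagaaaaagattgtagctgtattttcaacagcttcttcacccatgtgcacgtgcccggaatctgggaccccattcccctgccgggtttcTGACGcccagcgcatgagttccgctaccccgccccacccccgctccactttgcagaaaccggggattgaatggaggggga
ULBP2, chr6:149941764-149942063, plus strand, an NKG2D ligand: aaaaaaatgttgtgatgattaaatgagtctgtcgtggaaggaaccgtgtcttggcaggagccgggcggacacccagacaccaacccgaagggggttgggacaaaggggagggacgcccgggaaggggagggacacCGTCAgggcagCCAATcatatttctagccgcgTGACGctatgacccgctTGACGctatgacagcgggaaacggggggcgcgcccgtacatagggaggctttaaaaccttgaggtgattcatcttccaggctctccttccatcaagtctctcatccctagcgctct

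The interferon-type core was found in 11 of the 36 member windows (30.6%), against 3.57% of all 35116 RefSeq windows of that length. Its members were B2M, ERAP1, ERAP2, HLA-F, PSMB10, PSMB8, PSME1, PSME2, RFX5, TAP1 and TAP2. It thus stood in many but not all matched class I and immunoproteasome genes, being absent from HLA-B, HLA-C, HLA-G, TAPBPL and PSMB9. Outside these classes it stood in RFX5, and in none of the matched class II genes or NKG2D ligands. The NF-kB site was found in 9 member windows (25%), against 11.3% of all windows, and HLA-B held 2 matches to it and HLA-C 1. The CCAAT box was found in 18 windows (50%), against 34.6% of all, and the CRE core in 13 (36.1%), against 24.6% of all. The GAS element was found in 2 windows (5.56%), one of PSMB8 and one of TAP1, against 7.66% of all. TAP1 and PSMB9 start 488 bases apart on opposite strands (bases 32853704 and 32854192 of chromosome 6). These are matches of letters only, and windows of neighbouring genes or of one gene share sequence.

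B2M, the light chain of every class I molecule (chr15:44711517-44718145), was the highest member in every library except untreated SNU-398, where PDIA3 exceeded it, at 676, 367, 507, 67 and 157 FPKM in empty vector, SALL4A, SALL4B, untreated and knockdown cells. In each line the SALL4-poorer library was the higher one, and all 3 SNU-387 values lay above both SNU-398 values. HLA-E, a heavy chain read by the NK receptor NKG2A (chr6:30489467-30494205), stood at 29, 15.5, 13.2, 6.15 and 7.26 FPKM. HLA-E was the highest of the heavy chains analysed here in every library, at 2.56 to 3.42 times the FPKM of HLA-B.

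HLA-B, a classical heavy chain (chr6:31353872-31357187), stood at 8.49, 5.03, 5.17, 2.25 and 2.18 FPKM, so both SALL4 vectors lay below the empty vector and the SNU-398 libraries differed little. HLA-C, the main ligand class of killer immunoglobulin-like receptors (chr6:31268749-31272086), stood at 3.34, 2.63, 3.58, 0.663 and 1.62 FPKM. HLA-F, a nonclassical heavy chain (chr6:29723279-29727296), stood at 12.3, 2.26, 5.40, 1.58 and 1.53 FPKM, with the empty vector alone above 6 FPKM. HLA-G, the nonclassical chain of the placenta, was listed at 0 in all 5 libraries. At the estimated depths a count of 0, read as up to 3 fragments, allowed HLA-G at most 0.0808 FPKM in SALL4A and 0.265 FPKM in knockdown cells. The heavy chains HLA-B, HLA-C, HLA-E and HLA-F together amounted to 7.86%, 6.94%, 5.40%, 15.9% and 8.04% of the B2M FPKM. Their transcripts share few 50-base stretches with other genes (1.70% to 6.79%), although HLA genes differ between people and a reference allele can lose reads.

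The peptide suppliers were also well covered in SNU-387. TAP1 (chr6:32845209-32853978) stood at 18.5, 15.4, 13.2, 3.47 and 4.46 FPKM and its partner TAP2 (chr6:32821833-32838727) at 10.8, 11.8, 8.26, 8.10 and 8.92 FPKM. TAP2 therefore stayed within 8.10 to 11.8 FPKM over both lines while TAP1 was lower in SNU-398. ERAP1 (chr5:96760810-96808100) stood at 37.4, 37.1, 34.9, 3.36 and 7.58 FPKM and ERAP2 (chr5:96875939-96919716) at 60.3, 57.3, 45.7, 0.0707 and 0.661 FPKM. ERAP2 was 1.61, 1.54 and 1.31 times ERAP1 in the SNU-387 libraries and 0.0211 and 0.0872 times ERAP1 in the SNU-398 libraries. TAPBPL, the peptide editor TAPBPR (chr12:6452084-6462318), stood at 14.7, 7.68, 16.2, 0.0260 and 0.542 FPKM, which is near 0 in both SNU-398 libraries. PDIA3, the disulfide isomerase ERp57 (chr15:43746392-43773279), stood at 193, 109.9, 159.9, 92.1 and 49.3 FPKM, and 18.4% of its 50-base stretches recur in another annotated gene.

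**Figure D1:**
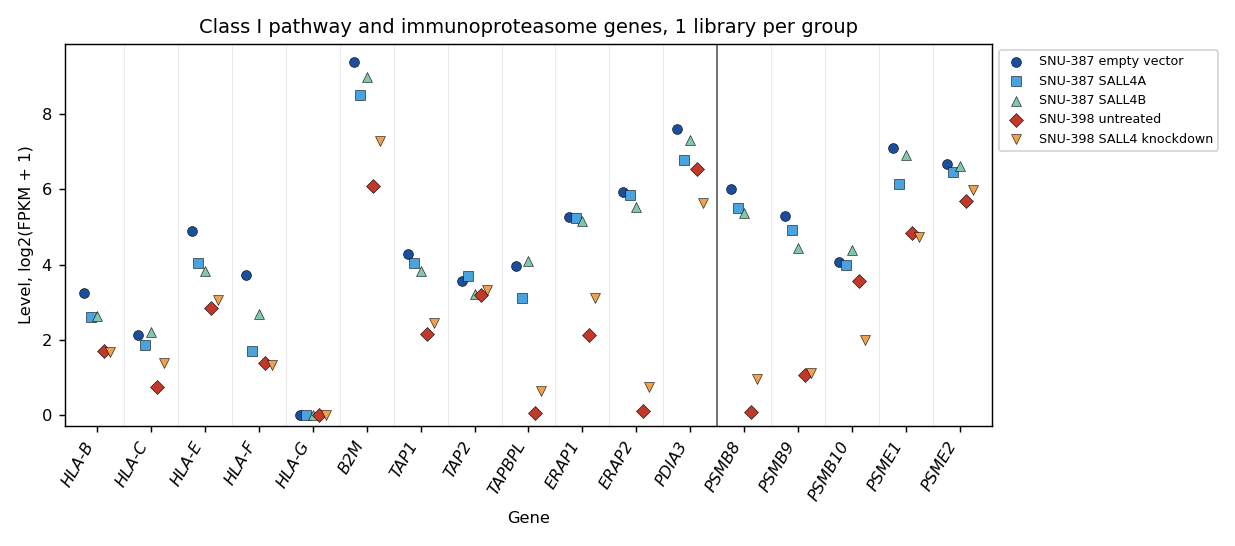
Levels of the class I and immunoproteasome genes as log2(FPKM + 1) on the vertical axis, with genes along the horizontal axis and 1 marker per library. B2M is highest in all libraries but untreated SNU-398, HLA-G is at 0 throughout, and TAPBPL, ERAP2 and PSMB8 stand above 3 in SNU-387 but below 1 in both SNU-398 libraries.

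The immunoproteasome split by line. PSMB8, the catalytic subunit beta5i (chr6:32840717-32844047), stood at 64.2, 44.4, 40.8, 0.0604 and 0.933 FPKM. PSMB9, the subunit beta1i (chr6:32854161-32859585), stood at 38.5, 29.1, 20.6, 1.10 and 1.15 FPKM. Both were therefore abundant in all 3 SNU-387 libraries, in the order empty vector, SALL4A, SALL4B, and near 0 to 1 FPKM in SNU-398. PSMB10, the subunit beta2i (chr16:67934502-67937087), was different, at 15.9, 14.9, 19.9, 10.7 and 3.0 FPKM, with only the knockdown library low. The activator subunits PSME1 (chr14:24136158-24138967) and PSME2 (chr14:24143365-24147221), which form the PA28 cap, stood at 136, 69.9, 120.0, 27.8 and 25.5 FPKM and at 101, 87, 97.5, 50.5 and 62.7 FPKM. The cap genes were thus expressed in both lines.

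Each inducible catalytic subunit competes with a constitutive one, which gives a share within a library that is free of scaling. PSMB8 made up 45.6%, 36.0%, 32.7%, 0.0718% and 0.642% of the summed FPKM of PSMB8 and PSMB5. PSMB9 made up 31.7%, 22.9%, 14.6%, 1.18% and 1.44% of PSMB9 and PSMB6. In SNU-387 both shares were lower with either SALL4 vector than with the empty vector, and lowest with SALL4B. PSMB10 made up 15.3%, 14.3%, 15.2%, 16.6% and 3.54% of PSMB10 and PSMB7. The constitutive partners PSMB5 (76.5 to 144 FPKM), PSMB6 (78.4 to 120.3 FPKM) and PSMB7 (53.7 to 111 FPKM) were expressed in every library.

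**Figure D2:**
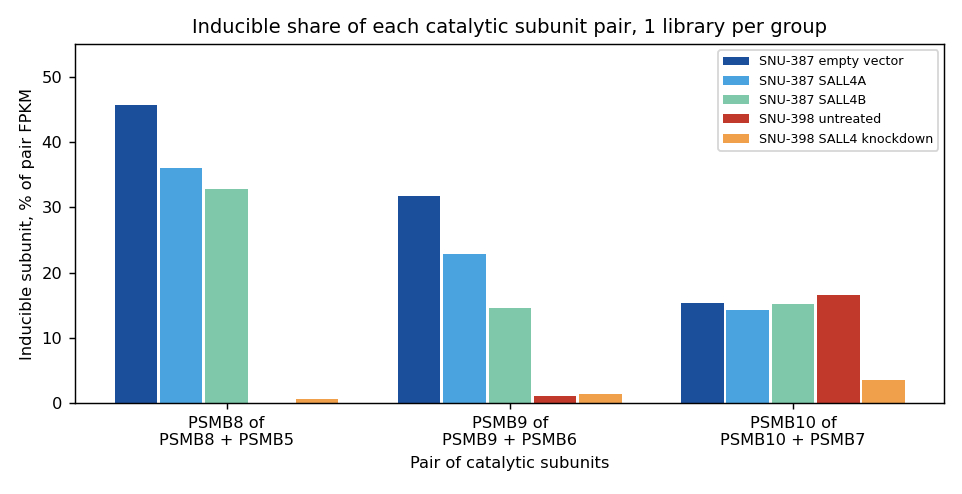
Bars give the inducible subunit as a percent of the FPKM summed with its constitutive partner, for 3 pairs and 5 libraries, with the axis starting at 0 and 1 library per bar. PSMB8 and PSMB9 shares are 14.6% to 45.6% in SNU-387 and at most 1.44% in SNU-398 (the untreated PSMB8 bar, 0.0718%, is too low to see), while the PSMB10 share is low only after knockdown.

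The HLA chains of class II were weak in both lines. HLA-DRA, the alpha chain of HLA-DR (chr6:32439842-32445046), stood at 1.09, 0.693, 0, 0 and 0 FPKM, which amounted to an estimated 16.6, 20.9, 0, 0 and 0 fragments. HLA-DRB1, its beta chain (chr6:32578769-32589848), stood at 0.964, 0.113, 0, 0.124 and 0 FPKM. Both chains were thus highest with the empty vector and rested on few fragments. HLA-DPA1 and HLA-DPB1, the chains of HLA-DP, reached at most 0.152 and 0.159 FPKM, both with the empty vector, and were listed at 0 in SALL4B and both SNU-398 libraries. HLA-DMB, the beta chain of the peptide exchanger, reached at most 0.248 FPKM. Its partner HLA-DMA (chr6:32948613-32953122) stood higher, at 2.70, 1.09, 3.02, 0.222 and 1.06 FPKM, so the pair was unequal in every library.

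In SNU-387 the accessory genes of class II stood higher than the HLA-DR and HLA-DP chains. CD74 (chr5:150402152-150412751) stood at 13.7, 3.87, 2.0, 0.337 and 1.90 FPKM, an estimated 160, 89.5, 17.4, 7.09 and 13.4 fragments. The empty vector library was far above the others. CTSS, the protease that removes CD74 (chr1:150730196-150765957), stood at 3.05, 1.19, 1.94, 0.0989 and 0.360 FPKM. IFI30, a lysosomal thiol reductase that opens disulfide bonds of antigens (chr19:18173667-18178117), stood at 34.1, 11.3, 26.3, 11.4 and 13.6 FPKM and was low in SALL4A among the SNU-387 libraries. Most of the IFI30 sequence (87.5% of 50-base stretches) recurs in another annotated locus that overlaps it, so its value may include that locus.

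The regulators differed from each other. CIITA (chr16:10877198-10936388) stood at 0.268, 0.396, 0.0466, 0 and 0.0480 FPKM and did not reach 1 FPKM anywhere. NLRC5 (chr16:57017074-57083524) stood at 3.69, 4.26, 1.87, 0.146 and 1.32 FPKM, which in untreated cells was an estimated 21.0 fragments. RFX5 (chr1:151340640-151347251) stood at 21.1, 19.4, 26.6, 31.8 and 27.9 FPKM and, with TAP2, had the smallest ratio of its highest to its lowest library among the members.

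The NKG2D ligands are stress-induced surface proteins that bind the activating receptor NKG2D. MICA (chr6:31403579-31415315) stood at 9.37, 6.25, 10.2, 13.8 and 35.6 FPKM, highest in the knockdown library. MICB (chr6:31498115-31511124) stood at 2.16, 1.93, 2.22, 4.38 and 4.77 FPKM, about evenly within each line. ULBP2 (chr6:149942000-149949235) stood at 18, 13, 23.1, 2.85 and 7.11 FPKM, and 32.2% of its 50-base stretches recur in another gene of its family.

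**Figure D3:**
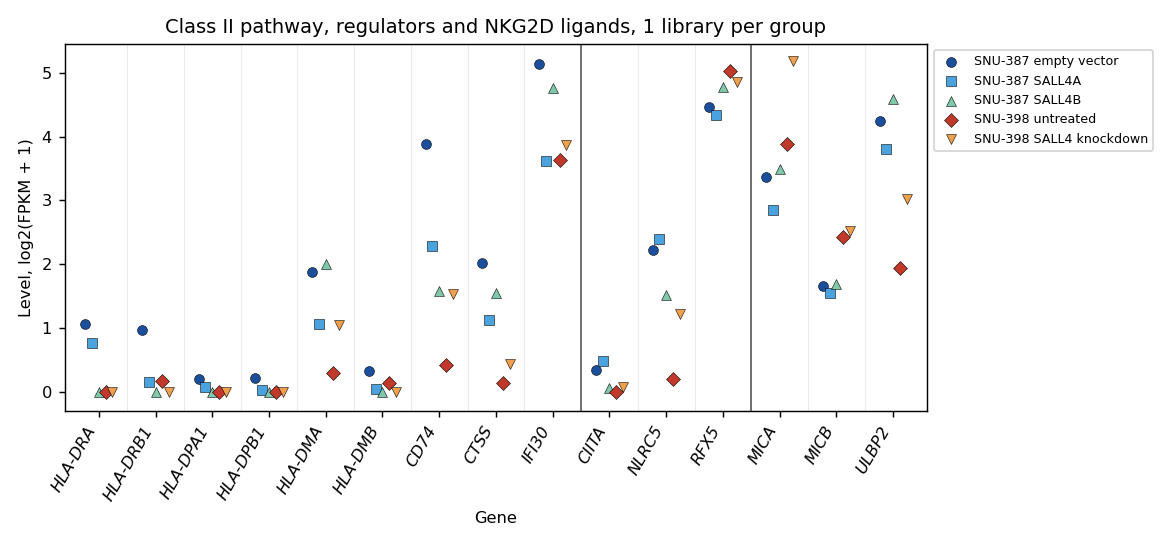
Levels of the class II genes, regulators and NKG2D ligands as log2(FPKM + 1) on the vertical axis, with 1 marker per library. The HLA-DR, HLA-DP and HLA-DMB genes and CIITA stay near or below 1, CD74 is highest with the empty vector, and MICA is highest after knockdown.

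The first comparison asked what raised SALL4A did in SNU-387. Of the 32 members, 26 reached 1 FPKM in the higher library of the pair, 0 were at least 2-fold higher, and 3 were at least 2-fold lower on the scale log2(FPKM + 1). Across all 12441 genes tested, 2.27% were called higher and 3.24% lower. HLA-F fell by 2.03 (log2), CD74 by 1.59 and IFI30 by 1.52. The remaining 23 members did not reach 2-fold, with PSME1 at -0.95, CTSS at -0.89, B2M at -0.88 and HLA-E at -0.86 nearest to it. The median ratio of the members that passed the filter was -0.48, against 0.01 over all genes tested, and 24 lay below 0 and 2 (TAP2 and NLRC5) above it.

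By class, the SALL4A median was -0.65 over 11 class I genes, -0.39 over 5 immunoproteasome genes, -0.89 over 5 class II genes and -0.44 over 3 NKG2D ligands. HLA-DRA passed the filter through the empty vector alone, so it could only be below 0. Over members at 1 FPKM or more in both libraries, the median was -0.52 for all 25 and -1.20 for 4 class II genes. ERAP1 at -0.01, ERAP2 at -0.07 and PSMB10 at -0.09 stood closest to 0. The leukocyte marker CD68 also stood lower in this pair, at 34.0 FPKM with the empty vector and 15.5 FPKM with SALL4A, and its part in the result was not tested.

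SALL4B was compared with the same empty vector library, so both comparisons share that library and their likeness is no separate evidence. Of the 26 members that passed the filter, 4 were called lower and 0 higher, while over 12459 genes 3.13% were called higher and 4.86% lower. CD74 fell by 2.30 (log2), HLA-E by 1.08, HLA-F by 1.06 and HLA-DRA by 1.06. HLA-DRA counts only through its 1.09 FPKM in the empty vector, just past the filter, so it could only be lower, and was not called with libraries brought to a common total without small RNAs. The median of the members was -0.36, against 0.03 over all genes tested, with 18 below 0 and 8 above it. Class medians were -0.39 for class I, -0.18 for the immunoproteasome, -0.46 for class II and 0.11 for the NKG2D ligands. Of the leukocyte markers, CSF1R, a receptor of macrophages, was called lower in this pair (2.66 with the empty vector and 0.615 FPKM with SALL4B), CD14 stood at -0.86 and PTPRC at -0.50, while CD68 stood at 0.29. CSF1R passed the filter in the SALL4B pair through the empty vector alone, so it could only be lower there. In SALL4A, CSF1R was at -0.07. Their part in the values of CD74 and HLA-DRA was not tested.

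Set side by side against the empty vector, members had these ratios for SALL4A and for SALL4B in turn. HLA-B had -0.65 and -0.62, and HLA-E -0.86 and -1.08. PSMB9 had -0.39 and -0.87, and NLRC5 0.17 and -0.71. In these genes except HLA-B, the SALL4B value was the lower one. TAPBPL had -0.85 and 0.14, HLA-DMA -0.82 and 0.12, and ULBP2 -0.44 and 0.34, so in these the SALL4A value was the lower one. RFX5 at -0.12 and 0.32 and MICB at -0.11 and 0.02 did not reach 2-fold with either isoform.

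The isoforms were then compared directly. Of 25 members that passed, 0 were at least 2-fold higher with SALL4A and only IFI30 was at least 2-fold lower, by 1.15 (log2). Over 12424 genes, 3.82% were called higher and 3.39% lower. TAPBPL at -0.99, HLA-F at -0.97 and HLA-DMA at -0.95 came nearest on the lower side, and NLRC5 at 0.87 and CD74 at 0.70 on the higher side. The median of the members was -0.34, against -0.0017 over all genes tested. With libraries brought to a common total without small RNAs, the median of all genes in this pair moved to 0.17 and the share of calls that were higher from 53.0% to 72.9%, and IFI30 stood at -0.97.

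Knockdown of SALL4 in SNU-398 asked the opposite question. Of the 32 members, 21 passed the filter, 5 were at least 2-fold higher, 1 was at least 2-fold lower and 15 were neither. Over all 13716 genes tested, 9.73% were called higher and 8.13% lower. MICA rose by 1.31 (log2), B2M by 1.21, CD74 by 1.12, ULBP2 by 1.07 and NLRC5 by 1.02. PSMB10 fell by 1.55. In FPKM these were 2.59 times for MICA, 2.34 times for B2M and 2.49 times for ULBP2, each from 69 or more estimated fragments per library.

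CD74 and NLRC5 rose from lower bases, under the filter in untreated cells. CD74 went from 0.337 FPKM, or about 7 fragments, with a 95% exact Poisson interval of 0.134 to 0.685 FPKM, to 1.90 FPKM, or about 13 fragments, with 0.982 to 3.15 FPKM. NLRC5 went from 0.146 FPKM (0.0901 to 0.222) to 1.32 FPKM (1.02 to 1.69), or from about 21 to 64 fragments. The intervals cover counting error only. PSMB10 went from 10.7 FPKM (9.49 to 12) to 3.0 FPKM (1.94 to 4.35). For these 3 genes the counting intervals of both libraries did not overlap. They were picked as called genes, which favours such a gap, and its share over all genes was not computed. CD74 and NLRC5 no longer entered the comparison with a filter at 5 FPKM, and all 6 calls held with either scaling to a common level.

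The remaining class I genes did not reach 2-fold after knockdown. ERAP1 stood nearest, at 0.98, which in FPKM was 2.26 times, from an estimated 396 and 299 fragments, and it passed 2-fold at 1.02 with either scaling to a common level and at 1.15 with a pseudocount of 0.1. On the reported scale HLA-C was at 0.65. HLA-B at -0.03, HLA-F at -0.03, HLA-E at 0.21, TAP1 at 0.29 and PSMB9 at 0.03 lay close to 0, while PDIA3 was at -0.89. B2M was thus called and none of the heavy chains that pair with it, although HLA-C passed 2-fold, at 1.17, with a pseudocount of 0.1. Members that passed had a median of 0.23, against -0.01 over all genes tested, with 15 above 0 and 6 below it. HLA-C, HLA-DMA, CD74 and NLRC5 passed the filter through the knockdown library alone, so their sign was fixed by the filter, and the 17 members at 1 FPKM or more in both libraries had a median of 0.12. Of the 3 class II genes tested, only IFI30, at 0.23, passed in both libraries. Class medians were 0.21 for class I (9 of 12 passed), -0.05 for the immunoproteasome (4 of 5) and 1.07 for the NKG2D ligands (3 of 3).

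ERAP2, PSMB8 and TAPBPL did not reach 1 FPKM in either SNU-398 library and were not tested there. ERAP2 was at 0.071 and 0.661 FPKM, PSMB8 at 0.060 and 0.933 FPKM, and TAPBPL at 0.026 and 0.542 FPKM, in untreated and knockdown cells. These values rested on an estimated 8.66, 1.46 and 0.971 fragments in untreated cells and 27.1, 7.53 and 6.78 in knockdown cells. Expressed against the empty vector of SNU-387, the knockdown values were 1.10% for ERAP2, 1.45% for PSMB8 and 3.69% for TAPBPL.

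Genes that SNU-387 expresses and untreated SNU-398 lacks were examined beside them. There were 148 genes at 20 FPKM or more in the empty vector and under 0.1 FPKM in untreated cells, and ERAP2 and PSMB8 were among them. Since they were chosen for low values in untreated cells, a higher value elsewhere is favoured by the choice. After knockdown, 132 of the 148 were higher than in untreated cells and 15 were listed at 0. Their knockdown level had a median of 0.889% of the empty vector level, with quartiles at 0.465% and 1.82%, while their untreated level had a median of 0.0038%. All 29 that stood at 20% or more were small RNAs, and without the 33 small RNAs the median was 0.668%. CD74 at 13.8%, CTSS at 11.8%, NLRC5 at 35.8% and HLA-C at 48.4% lay above the third quartile, from lower levels in the empty vector. Whether this shared low level has a part in the members' knockdown values was not tested. With 0.889% of the empty vector value subtracted from each knockdown value, MICA, B2M, CD74 and ULBP2 were still called and NLRC5 stood at 0.997. That share is small beside the knockdown values of the genes still called, and the share of single genes varied. The subtraction therefore cannot decide the question for any 1 gene.

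**Figure D4:**
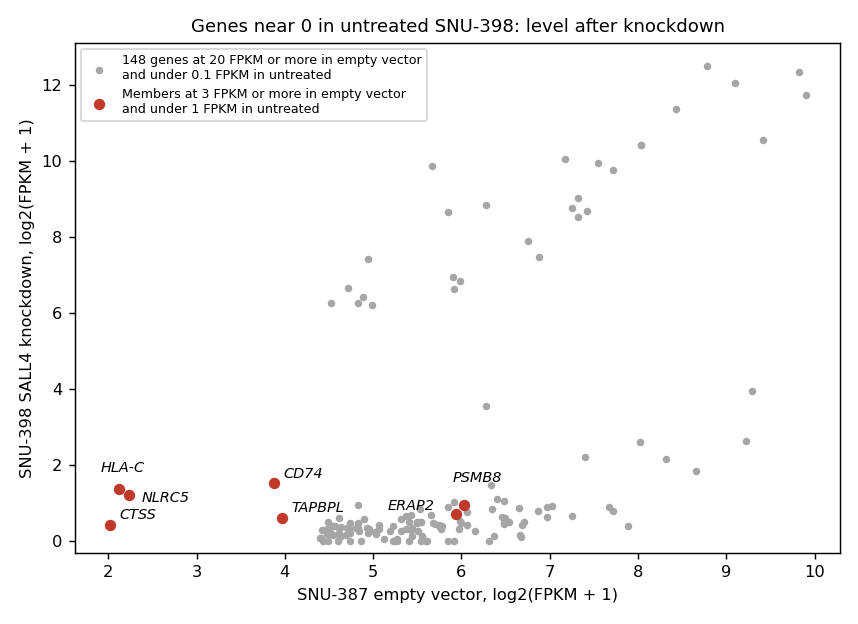
Grey points are 148 genes at 20 FPKM or more in SNU-387 empty vector and under 0.1 FPKM in untreated SNU-398, red points are members at 3 FPKM or more and under 1 FPKM, and both axes are log2(FPKM + 1). Most grey points lie below 2 after knockdown, with ERAP2 and PSMB8 among them, and the 29 at 20% or more of the empty vector level are small RNAs.

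Overexpression and knockdown share no library, so their signs can be set beside each other, although members are not independent of one another. Below 0 with SALL4A and above 0 after knockdown were 13 of 21 members (61.9%), against 2534 of 11238 genes (22.5%). For SALL4B it was 10 of 21 members (47.6%), against 2407 of 11232 genes (21.4%). These counts include members that entered the knockdown comparison through the knockdown library alone and could only be above 0. Over genes at 1 FPKM or more in both libraries of both pairs, it was 10 of 17 members (58.8%) against 2241 of 10336 genes (21.7%) for SALL4A, and 8 of 17 (47.1%) against 2105 of 10287 (20.5%) for SALL4B. Of the members tested, 24 of 26 lay below 0 with SALL4A, 18 of 26 with SALL4B, and 15 of 21 above 0 after knockdown. Values so one-sided raise these shares above those of all genes by themselves. The counts therefore cannot show whether the same genes respond in opposite ways. CD74 was the single member at least 2-fold lower with overexpression and at least 2-fold higher after knockdown, with either isoform. So were 40 of 11238 genes for SALL4A and 89 of 11232 for SALL4B. CD74 was among the members that entered through the knockdown library alone, and both of its overexpression values share the empty vector library. B2M had -0.88, -0.42 and 1.21 in the 3 pairs. NLRC5 had 0.17, -0.71 and 1.02, so only its SALL4B value had the sign opposite to knockdown. PSMB10 had -0.09, 0.30 and -1.55.

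**Figure D5:**
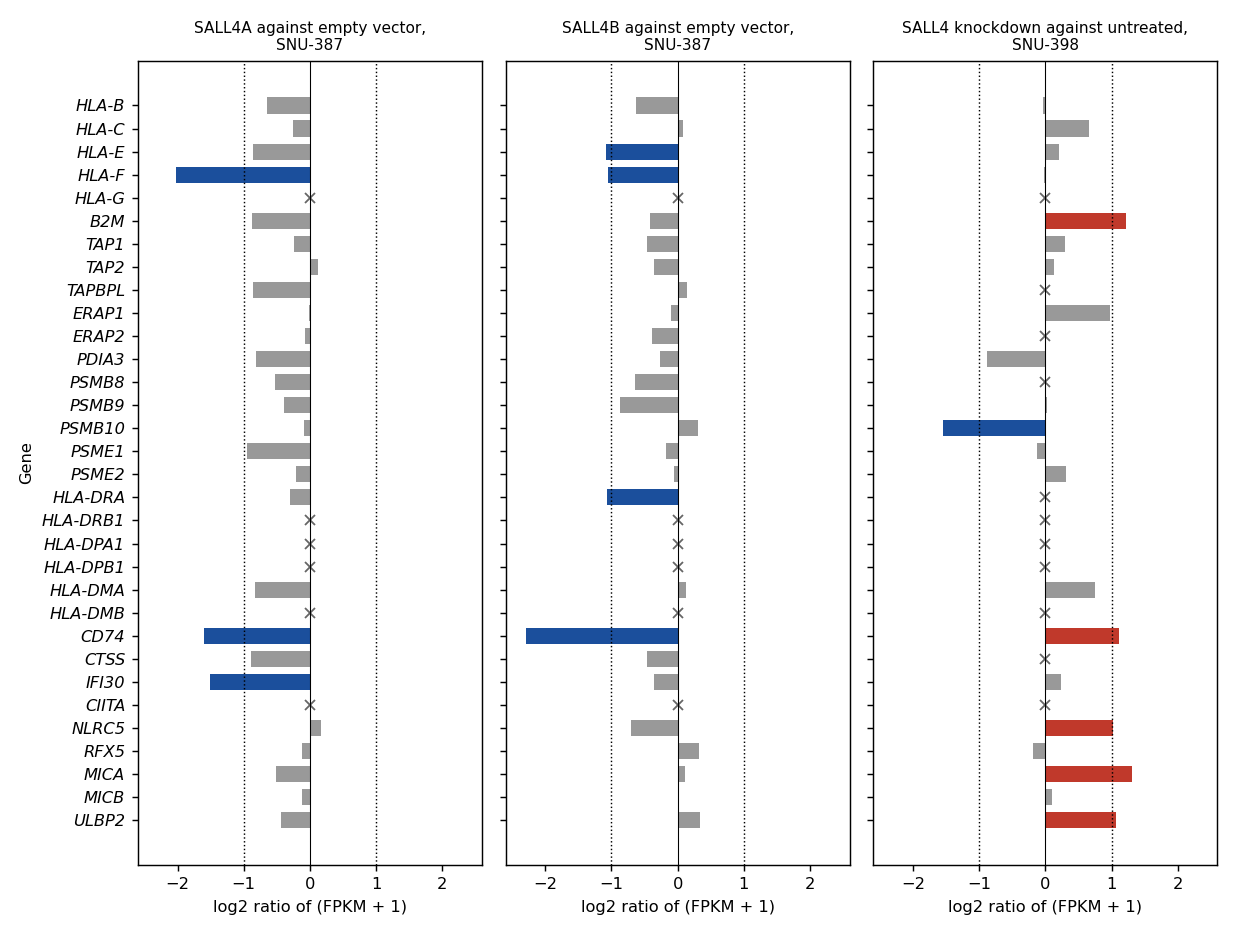
Horizontal bars give the log2 ratio of (FPKM + 1) for each member in 3 pairs of libraries, dotted lines mark 2-fold, colour marks members past it and crosses mark members below 1 FPKM in both libraries. HLA-F and CD74 are called lower with both SALL4 vectors, and MICA, B2M, CD74, ULBP2 and NLRC5 are called higher and PSMB10 lower after knockdown.

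The largest difference lay between the lines. Untreated SNU-398 against the SNU-387 empty vector differs in line, vector and SALL4 level at once, and these cannot be told apart. Of 26 members that passed, 0 were at least 2-fold higher in SNU-398 and 20 were at least 2-fold lower, while over 13996 genes 23.7% were called higher and 21.4% lower. The median of the members was -1.96, against 0.07 over all genes tested. Lower by the most were PSMB8 at -5.94, ERAP2 at -5.84, PSMB9 at -4.23, TAPBPL at -3.93, CD74 at -3.46, B2M at -3.32 and ERAP1 at -3.14. Among the heavy chains, HLA-F stood at -2.37, HLA-E at -2.07, HLA-B at -1.54 and HLA-C at -1.38, so all 4 were called lower in SNU-398.

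The 5 tested class II genes were called lower, as were NLRC5 (-2.03) and ULBP2 (-2.30), while MICA (0.51), MICB (0.77) and RFX5 (0.57) stood above 0 without reaching 2-fold. HLA-C, TAPBPL, ERAP2, PSMB8, HLA-DRA, HLA-DMA, CD74, CTSS and NLRC5 passed the filter through the SNU-387 library alone, so that these 9 could only be lower. The 17 members at 1 FPKM or more in both libraries had a median of -1.54, and among class II genes only IFI30, at -1.50, was one of them. Over those in both libraries, the class I median was -2.10 (8 genes) and the immunoproteasome median -1.62 (4 genes), and the 3 NKG2D ligands had 0.51. With libraries brought to a common total without small RNAs, the median of all genes in this pair moved to 0.41 and the share of calls that were higher from 52.6% to 65.6%, MICB passed 2-fold at 1.04 and PDIA3, called at -1.06, stood at -0.71. With a common upper quartile that median was 0.24 and PDIA3 stood at -0.89.

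Genes that work with the members were read from lists chosen with earlier results of these data known. None of 17 constitutive proteasome genes was called with SALL4A, SALL4B or knockdown, with medians of 0.04, 0.16 and 0.28, and between the lines PSME4 was higher and PSMA2 and PSMB1 lower in SNU-398. Of 8 chaperones and factors of the endoplasmic reticulum, TMEM129, a ubiquitin ligase of that membrane, rose with SALL4B from 3.07 to 8.48 FPKM and none was called with SALL4A or knockdown. Medians were -0.10, -0.03 and -0.16, and between the lines CANX and SEC61A1 were lower in SNU-398.

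Interferon signalling genes gave few calls. Of 15 tested among 17, STAT2, a signal transducer of type I interferon, fell from 29.2 to 12.4 FPKM with SALL4A, and none was called with SALL4B. After knockdown IRF9, a DNA-binding partner of STAT2, rose from 9.81 to 28 FPKM, and IRF3 fell from 15.8 to 7.10 FPKM. Medians were -0.42, -0.45 and 0.31 in the 3 pairs. IRF1, which acts on interferon response elements of class I genes, stood at 14.2, 9.51, 11.9, 2.95 and 6.12 FPKM over the 5 libraries. IFNGR1, a receptor chain for interferon gamma, was 89.9 FPKM with the empty vector and 9.49 FPKM in untreated SNU-398, and with IRF1, IRF2, JAK1 and SOCS3 it was called lower there, while IFNAR2 was called higher.

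Factors that bind the other promoter elements were read next. None of 6 NF-kB genes was called with SALL4A, SALL4B or knockdown, with medians of 0.23, 0.19 and 0.47, and RELA and REL were higher in SNU-398 than in SNU-387. None of 7 genes for the RFX, NF-Y and CREB partners was called in these 3 pairs either, with medians of 0.04, -0.29 and -0.16, and RFXANK was higher in SNU-398.

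Lysosomal proteases process class II antigens. CTSC, a dipeptidyl peptidase, fell from 58.7 FPKM with the empty vector to 19.3 with SALL4A and 14.9 with SALL4B. CTSL, a lysosomal endopeptidase, rose after knockdown from 31.8 to 132 FPKM, while CTSF fell from 9.70 to 3.12 FPKM. CTSZ was also called higher, from 0.192 to 1.72 FPKM, but passed the filter through the knockdown library alone, so it could only be higher. It stood at 217 FPKM in the SNU-387 empty vector, and whether the shared low level described above has a part in its knockdown value was not tested. Over 8 proteases the medians were -0.86 for SALL4A, 0.03 for SALL4B and -0.03 for knockdown, 5 were lower in SNU-398 than in SNU-387, and CTSL and CTSF were lower with SALL4A than with SALL4B. CTSZ was among the 5, and between the lines it passed the filter through SNU-387 alone, so it could only be lower. Of 10 other class II genes, MARCH1, a ubiquitin ligase that removes class II from the surface, rose after knockdown from 1.96 to 6.77 FPKM.

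Other ligands of lymphocyte receptors did not follow one pattern. Of 11 further NK ligands, ULBP1, an NKG2D ligand, rose with SALL4B from 3.74 to 8.66 FPKM. None of 9 tested was called with SALL4A, and none of only 5 tested after knockdown. In untreated SNU-398, NCR3LG1, the ligand B7-H6 of NKp30, was higher at 38.3 against 0.638 FPKM, and ULBP1, ULBP3, RAET1E, RAET1G and CD58 were lower. All of these but CD58 passed the filter only through the library where they were higher, so their signs were fixed by the filter. ULBP1, ULBP3 and RAET1G stayed at or below 0.219 FPKM after knockdown, unlike ULBP2. Of 7 inhibitory ligands, CD274 (PD-L1) rose with SALL4A from 4.96 to 16.4 FPKM and stood at 8.43 FPKM with SALL4B, and TNFRSF14, the BTLA ligand HVEM, fell with SALL4A from 6.32 to 2.10 FPKM. PDCD1LG2 (PD-L2) was higher with SALL4A than with SALL4B, at 13.7 and 5.51 FPKM. Only 2 of this list were tested after knockdown and neither was called, and between the lines all 5 tested were lower in SNU-398 than in SNU-387. Any of these 5 not tested after knockdown was under 1 FPKM in untreated SNU-398, so it could only be lower. Over all genes, 21.4% were called lower in that pair.

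Several members lie in the major histocompatibility region, for which the deposited tables list extra rows. There were 17 members on chromosome 6 with several rows, 119 rows in all, of which 16 were above 0 in any library, so the sums equalled the value of a single row. For TAP2 (80.2%) and PSMB10 (38.9%), many 50-base stretches also recur in an overlapping annotated locus, while B2M, PSMB8, PSMB9, CD74, TAPBPL and ERAP1 share none with a gene of another name. Copies of a gene under its own symbol, as in the extra rows, were not counted in these percentages.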

How the data were processed

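RNA-seq was measured in 5 libraries from 2 hepatocellular carcinoma lines, 1 library per group. Per the labels' protocols, RNA came off RNeasy columns and went into ScriptSeq Complete Gold libraries, a kit that depletes ribosomal RNA. The deposited values are FPKM per gene, computed by the authors. Alignment and quantification tools listed in the submitters' processing notes are Cuffdiff, Cufflinks, TopHat2 and SAMtools (no versions), with the builds hg38 and GRCh38. Which annotation, strand setting and joint normalisation were used was not given in the sources used here. FPKM depends on the transcript length used and on the other RNAs in the library, small RNAs included.

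Each table had 26032 rows, of which 17 without a gene name were left out, and 450 symbols with several rows were summed to give 24544 symbols. Among these, 333 combined several gene names. Ratios were log2 of (FPKM + 1) over (FPKM + 1), a scale that understates changes of low genes, for genes whose higher library reached 1 FPKM, and 2-fold was the call. With 1 library per group no test was possible on these values and none was made. The unit FPKM holds no depth, so fragments were estimated from the steps between low deposited FPKM values of 1-transcript genes (GENCODE 29), of which 63.4% to 67.2% of 256 to 520 low values per library lay within 0.1 of a whole number. That share is modest, so estimated fragments, their exact Poisson 95% intervals and the limit for a count of 0 (3 fragments) are approximate and cover counting error only. Gene coordinates are GRCh38 (GENCODE 29), and sequence sharing was the percent of 50-base stretches of a transcript found in another gene.

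The members and the lists (constitutive proteasome, endoplasmic reticulum chaperones, interferon signalling, NF-kB, partners of RFX, lysosomal proteases, other class II genes, other NK ligands, inhibitory ligands and markers of leukocytes, hepatocytes, endothelium and fibroblasts) were chosen with earlier results of these data known. Every member found was named, and of the other lists at most the 3 largest changes per comparison and the 2 highest genes. Some further called genes of these lists were named after their values were seen, and not every called gene is named. Alternatives were a pseudocount of 0.1, a filter at 5 FPKM or none, scaling to a common upper quartile or to a common total without small RNAs, and the highest row per symbol. Subtracting 0.889% of the empty vector value from knockdown was added after seeing the data. Software was matplotlib 3.10.9, scipy 1.17.1, pandas 2.3.3 and numpy 2.4.6 under Python 3.11.15.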

Additional observations from a re-analysis of the deposited data

How the results depend on the processing

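With 1 library per group, no value has replicate error, and leaving out a library leaves no comparison. No paired analysis was possible because each group held 1 library without a replicate number. Among counts of members under the alternatives, 55 stayed near the reported count and 7 moved. Among ratios of single members, 713 kept their side of 2-fold, 16 crossed it and none reversed. The filter settings and the highest row per symbol leave a member's ratio as it was, so those ratios could not cross. Counts of members likewise could not move without a filter or with the highest row per symbol. The unchanged results therefore include many that were fixed in advance. With a pseudocount of 0.1, 5 members were called lower with SALL4A (CTSS and HLA-DMA added), 1 higher (NLRC5) and 4 lower (HLA-DMA, HLA-F and TAPBPL added) with SALL4A against SALL4B, and 8 higher after knockdown (ERAP1, HLA-C and HLA-DMA added). With a filter at 5 FPKM, 3 were higher after knockdown, without CD74 and NLRC5. With a common total without small RNAs, 0 were lower with SALL4A against SALL4B and 1 (MICB) was higher in untreated SNU-398 than in SNU-387 empty vector, and ERAP1 reached 1.02 after knockdown, as it did with a common upper quartile. HLA-DRA was no longer called with SALL4B under the 5 FPKM filter or the total without small RNAs. Over all genes, a pseudocount of 0.1 gave 516 higher and 648 lower calls with SALL4A, against 282 and 403, 681 higher with SALL4B, against 390, and 739 higher and 711 lower with SALL4A against SALL4B, against 474 and 421. A common total without small RNAs gave 238 lower calls with SALL4A against SALL4B, against 421.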

Other observations

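Markers of other cell types, none of which is a member, were read in the same libraries, in the order empty vector, SALL4A, SALL4B, untreated and knockdown. The 6 hepatocyte markers summed to 9.91, 6.0, 40.6, 1.59 and 0.872 FPKM. The SALL4B value came mostly from SERPINA1 (5.78 with the empty vector and 25.3 FPKM with SALL4B) and APOA1 (0.308 and 14.9 FPKM), both called higher there. APOA1 passed the filter through the SALL4B library alone, so it could only be higher. The 5 endothelial markers summed to 2.66, 11.2, 1.74, 0.0514 and 0.336 FPKM, and with SALL4A CDH5 (0.333 to 5.06 FPKM) and KDR (0.238 to 3.46 FPKM) were called higher. CDH5 and KDR passed the filter through the SALL4A library alone, so they could only be higher. The 5 fibroblast markers summed to 390.2, 206, 527, 91.9 and 115 FPKM, of which LUM alone made 263 FPKM with the empty vector and 488 FPKM with SALL4B. The sum hides lower calls for 3 of the 5 with each isoform, which were DCN, COL1A1 and FAP with SALL4A and COL1A1 (54.9 to 4.92 FPKM), PDGFRB (2.75 to 0.245 FPKM) and FAP (39.3 to 1.56 FPKM) with SALL4B. PDGFRB passed the filter in the SALL4B pair through the empty vector alone, so it could only be lower there. Over all genes, 3.24% were called lower with SALL4A and 4.86% with SALL4B. After knockdown FAP was called higher and DCN lower, and among leukocyte markers CD83 was called lower (4.89 to 1.62 FPKM).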
